A study of Mus musculus with 2 samples.

Results

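Spinous keratinocytes are the cells just above the basal layer of the epidermis that have begun to differentiate, and they were examined here in single-cell RNA sequencing of mouse skin. They were chosen by their own counts: Krt1 and Krt10 together made up at least 1% of the unique molecular identifiers (UMIs, 1 per counted RNA molecule) of a member, and Flg and Lor less than 1%. Members also held less than 0.3% of Krt79, Defb6 and Cst6 (upper hair follicle), less than 0.5% of Col1a1, Col1a2, Col3a1 and Dcn (fibroblasts) and fewer than 3 UMIs of Mki67, Top2a, Cdk1 and Cenpf (dividing cells). Of 17492 cells left by limits on UMIs (200 to 45000), genes (100 to 7500) and mitochondrial UMIs (at most 10%), 1960 met this rule. The dorsal skin came from 1 untreated wildtype C57BL/6J mouse and from 1 untreated Eppk1-/- mouse, whose line had been crossed back to C57BL/6J and lacks epiplakin, the product of Eppk1, in all tissues rather than in the epidermis alone. Age and sex were not given in the sources used here. Dissociated cells were fixed, and probe pairs that bind the same RNA were ligated and counted (Flex assay). Each mouse had its own probe barcode, and all cells shared the droplet step.

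No comparison of the genotypes could be tested, because each is 1 library and the spread between mice is unknown. Differences are given as log2 of the Eppk1-/- over the wildtype level, so that negative values mean a lower level in the Eppk1-/- library. Levels are UMIs per 1000000 non-mitochondrial UMIs (CPM), summed over the member cells, and pairs of values always give the wildtype first. Values in parentheses after a ratio are its exact 95% interval, which covers counting error only. A gene was counted as different in size when its log2 ratio reached 0.5 in either direction and its UMIs were found in at least 25% of the member cells of either library. Levels of different genes are not set against each other, since each gene has its own probes.

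Keratinocytes leave the basal layer by giving up integrins and the keratins KRT5 and KRT14, and replace these keratins with KRT1 and KRT10. In the spinous layer they build many desmosomes, to which keratin filaments are tied by plakins such as desmoplakin, and they begin to make the lipids and envelope proteins used in the granular layer above. Epiplakin is a plakin that binds keratins, and Notch signalling is one of the pathways known to drive the step from basal to spinous cells.

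For 3 genes that stand for gene groups described below, the 250 bases before the RefSeq start (GRCm38.p6) are shown, 5′ to 3′ on the strand of the gene, with short motifs in capitals. Krtdap stands for the spinous programme, with the AP-1 letters TGANTCA, where N is any base. Hmgcs1 stands for cholesterol synthesis, with the sterol response letters TCACNCCAC. Tef stands for clock output, with the E-box letters CACGTG at both of its starts.
Krtdap, chr7:30787655-30787904, plus strand: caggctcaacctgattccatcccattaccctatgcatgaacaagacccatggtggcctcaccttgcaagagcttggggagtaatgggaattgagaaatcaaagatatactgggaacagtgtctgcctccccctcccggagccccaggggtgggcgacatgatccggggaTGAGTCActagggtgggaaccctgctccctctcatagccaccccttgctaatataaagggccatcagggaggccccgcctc
Hmgcs1, chr13:119690101-119690350, plus strand: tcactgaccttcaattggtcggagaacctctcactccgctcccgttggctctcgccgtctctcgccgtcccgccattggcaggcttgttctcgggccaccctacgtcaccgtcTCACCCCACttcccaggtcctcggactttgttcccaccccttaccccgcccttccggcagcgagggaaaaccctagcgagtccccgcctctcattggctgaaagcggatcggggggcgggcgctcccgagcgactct
Tef, chr15:81802423-81802672, plus strand: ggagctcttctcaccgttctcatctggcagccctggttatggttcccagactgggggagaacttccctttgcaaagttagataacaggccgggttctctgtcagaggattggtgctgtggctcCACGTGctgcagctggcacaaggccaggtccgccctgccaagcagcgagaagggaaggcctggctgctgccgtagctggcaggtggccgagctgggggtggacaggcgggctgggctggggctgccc
Tef, chr15:81811164-81811413, plus strand: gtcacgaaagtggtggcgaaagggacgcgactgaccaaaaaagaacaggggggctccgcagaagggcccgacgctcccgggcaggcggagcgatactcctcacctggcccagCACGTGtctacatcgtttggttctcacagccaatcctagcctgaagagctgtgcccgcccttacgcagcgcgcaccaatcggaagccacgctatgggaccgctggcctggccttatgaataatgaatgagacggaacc
Both strands were searched, and none of the 3 motifs contains another. Of 32851 windows of this length, 6.75% held the AP-1 letters, 1.05% the sterol response letters and 6.02% the E-box letters. Of the spinous programme genes, 10 of 16 had a window and 3 of them (Dmkn, Krtdap and Sbsn) held the AP-1 letters. Of the cholesterol synthesis genes 17 of 23 had a window, and Hmgcs1 alone of these held the sterol response letters. Of the clock output genes 10 of 12 had a window and 4 (Bhlhe41, Ciart, Per1 and Tef) held an E-box, against 1 (Cry1) of 5 with a window among 6 genes of the opposite clock phase. A match describes the letters only.

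The wildtype library contributed 993 members of 8875 cells (11.2%, Clopper-Pearson 10.5 to 11.9%) and the Eppk1-/- library 967 of 8617 (11.2%, 10.6 to 11.9%). Among spinous, basal and granular cells, the spinous share was 24.4% (23.1 to 25.7%) of 4071 wildtype and 30.3% (28.7 to 31.9%) of 3193 Eppk1-/- cells. Basal cells were those with at least 0.5% of Krt5 and Krt14 and less than 0.3% of Krt1 and Krt10, and granular cells those with at least 1% of Flg and Lor. There were 2914 wildtype and 2134 Eppk1-/- basal cells, and 164 and 92 granular cells. The spinous share of all cells was thus alike in both libraries, while among these keratinocytes it was higher in the Eppk1-/- library. That library also held more fibroblasts, 2539 against 1503, and the part of dissociation in these shares was not tested. The members held 12038371 wildtype and 8904446 Eppk1-/- UMIs, and the median cell had 7413 and 6521 UMIs and 2708 and 2541 genes. Of the members, 138 wildtype and 143 Eppk1-/- cells carried a droplet barcode that also occurred in the other library. Without them Eppk1 had a log2 ratio of -2.09, against -2.01 with them.

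The label was checked with Krtdap, Sbsn and Mt4, which the rule did not use, since the rule itself fixed Krt1 and Krt10 and also capped them in basal cells. All 3 stood higher in spinous than in basal cells. Krt10, the main suprabasal type I keratin, stood at 27519 and 26606 CPM in spinous cells, against 344 and 317 CPM in basal and 10336 and 8097 CPM in granular cells. Krt1, its type II partner, stood at 4099 and 5288 CPM, against 67.3 and 58.1 CPM in basal and 512 and 139.6 CPM in granular cells. Mt4, a metallothionein of differentiating epithelium, was highest in spinous cells, with 471 and 466 CPM, against 8.77 and 9.19 CPM in basal and 85.0 and 33.5 CPM in granular cells. Krtdap, a secreted keratinocyte protein, stood at 117 and 74.7 CPM in basal, 6881 and 5717 CPM in spinous and 11533 and 11584 CPM in granular cells. Sbsn (suprabasin) stood at 570.3 and 755 CPM, 8037 and 6499 CPM and 14757 and 14919.6 CPM in the same order. Krtdap and Sbsn thus went on rising into the granular cells and did not set spinous cells apart from them.

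**Figure D1:**
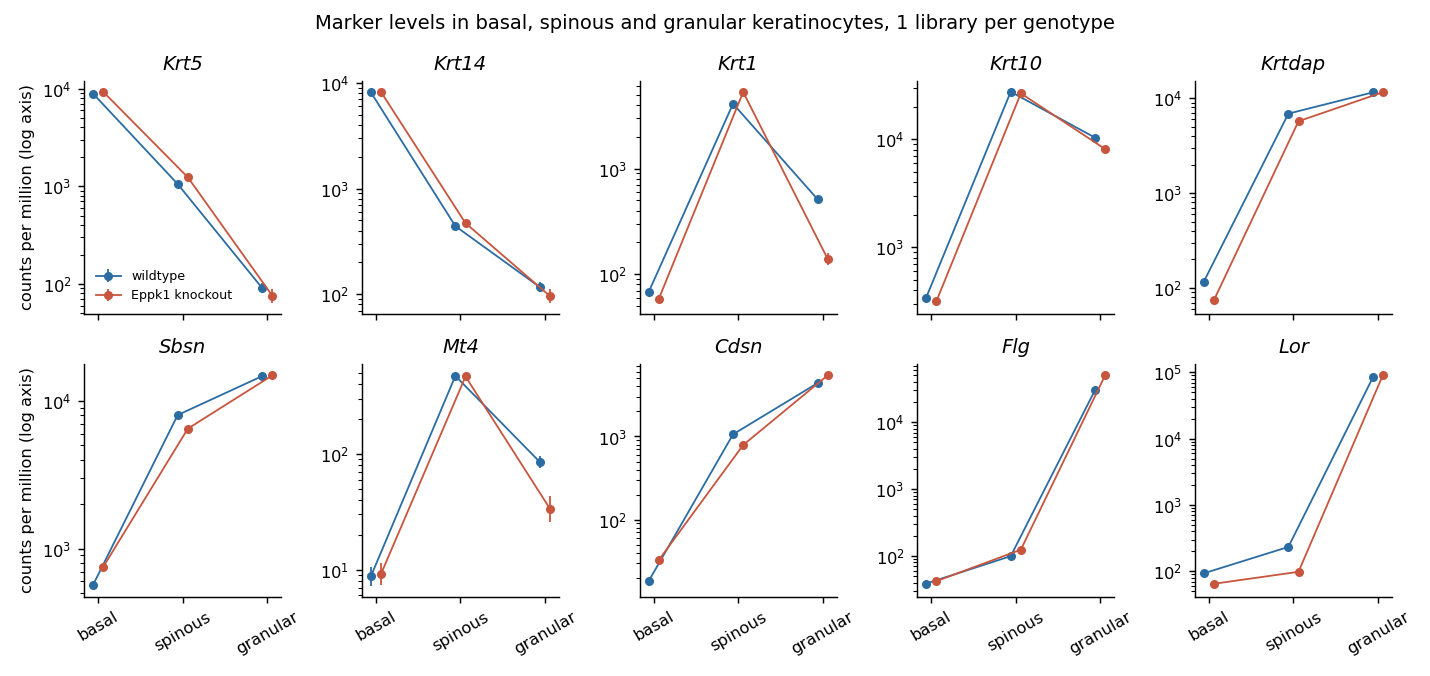
Levels of basal (Krt5, Krt14), spinous (Krt1, Krt10, Krtdap, Sbsn, Mt4) and granular (Cdsn, Flg, Lor) markers in CPM on a log axis, in basal, spinous and granular keratinocytes of the wildtype and Eppk1 knockout library. Points are sums over the cells and bars are 95% Poisson intervals, mostly smaller than the points; Mt4, which the rule did not use, peaks in spinous cells in both libraries, while Krt1 and Krt10 chose the cells.

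Markers of other stages and cell types were also found. All 5 basal markers had UMIs, with sums of 3175 and 3673 CPM, led by Krt5 (1054 and 1236 CPM). All 5 granular markers were found, with sums of 1847 and 1366 CPM, led by Cdsn, a corneodesmosome gene (1062 and 790.3 CPM). All 5 fibroblast markers were found, with sums of 102.1 and 178 CPM, led by Col1a1 (37.4 and 54.3 CPM), and were higher in the library that held more fibroblasts. The 4 upper follicle markers summed to 488 and 310.3 CPM, led by Cst6 (287 and 199 CPM), and the 5 immune markers to 407 and 391 CPM, led by Cd74 (309 and 329 CPM). Of 5 sebocyte markers 4 had UMIs, summing to 388 and 345 CPM, nearly all of it the desaturase gene Scd1 (385 and 342 CPM), and Awat2 was at 0 in both libraries. The inner follicle, endothelial and melanocyte markers summed to at most 1.33 CPM in either library, and Mlana was at 0 in both, which at a limit of 3 counts allows up to 0.250 CPM (wildtype) and 0.338 CPM (Eppk1-/-).

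Flg and Lor, genes of granular cells, were also found in fibroblasts, which should lack them. Lor stood at 232 and 98.0 CPM in spinous cells and 183 and 39.8 CPM in fibroblasts, and Flg at 99.2 and 124 CPM and 122 and 30.3 CPM. A UMI of either was found in 48.8% (45.7 to 52.0%) of wildtype and 41.2% (38.0 to 44.3%) of Eppk1-/- spinous cells, at median depths of 7413 and 6521 UMIs. In fibroblasts the shares were 41.7% (39.1 to 44.2%) and 34.4% (32.6 to 36.3%), at 6418 and 6169 UMIs. Fibroblasts thus came close to spinous cells in this share, at slightly lower depth. Flg and Lor limited the choice of cells, and their low values here are not read as expression.

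The members were not uniform. Their Krt1 and Krt10 share had a median of 2.60% in wildtype (range 1.001 to 7.23%) and 2.64% in Eppk1-/- cells (1.003 to 11.2%). The share lay between 1 and 2% in 344 wildtype and 307 Eppk1-/- cells, between 2 and 4% in 463 and 467, between 4 and 8% in 186 and 192, and at 8% or more in 0 and 1. The nearest cell outside the limit of 1% held 0.999% (wildtype) and 0.994% (Eppk1-/-). Within 0.2 percentage points of the limit lay 62 wildtype cells inside and 86 outside, and 61 and 69 Eppk1-/- cells, so that this edge cut through a continuous range. At the limit on Flg and Lor the nearest cells held 0.946% inside and 1.04% outside in wildtype, and 0.982% and 1.33% in Eppk1-/- cells.

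Other genes varied along this range in both libraries. From the 1 to 2% band to the 4 to 8% band, Hal (histidine ammonia-lyase, which makes urocanic acid in the epidermis) was higher by 4.02 and 3.94 on the log2 scale. Mboat2, an acyltransferase gene, was higher by 4.03 and 3.87, the kallikrein protease gene Klk5 by 3.40 and 3.90, the desmosomal cadherin Dsc1 by 3.37 and 3.53 and the connexin Gjb2 by 3.04 and 3.42. In the opposite direction the same difference was -3.60 and -3.43 for Krt14, -3.28 and -3.21 for Krt5, -3.23 and -3.42 for the alarmin Il33 and -3.51 and -2.90 for the integrin Itgb1. It was -3.34 and -2.62 for the desmosomal cadherin Dsg3 and -3.03 and -2.72 for Ptgs2, the inducible prostaglandin synthase. These genes were chosen after their values were seen.

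Depth followed a similar course and differed between the libraries. Cells with 20000 to 45000 UMIs were 209 of the wildtype (21.0%) and 106 of the Eppk1-/- members (10.96%), and held 53.0% and 36.2% of the UMIs. Cells with 5000 to 10000 UMIs numbered 376 and 465. Sbsn stood at 2226 and 2273 CPM in cells with fewer than 5000 UMIs and at 11093 and 11620.2 CPM in the deepest band. Krt77, a suprabasal keratin, stood at 7220.2 and 7560.0 CPM in the shallowest and at 31085 and 31962 CPM in the deepest band, and Krt5 at 3219 and 2863 CPM and at 399 and 388 CPM. Krt10 also rose, from 18764 and 19537 CPM to 33643 and 35818 CPM, while Krt1 fell, from 7520.2 and 7886 CPM to 2619.8 and 2484 CPM. Genes thus went with depth in both directions, and the wildtype sums held more of the deepest cells. Ratios were therefore also computed with 4 depth bands weighted alike in both libraries, called depth-weighted here. The bands were 200 to 5000, 5000 to 10000, 10000 to 20000 and 20000 to 45000 UMIs. Each band was weighted by its share of the wildtype UMIs, not of the wildtype cells. The deepest band thus carried 53.0% of the weight with 21.0% of the wildtype members, and depth-weighted values rest most on these cells. Another 135 wildtype and 93 Eppk1-/- cells met all other limits but held over 45000 UMIs, and are not members.

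**Figure D2:**
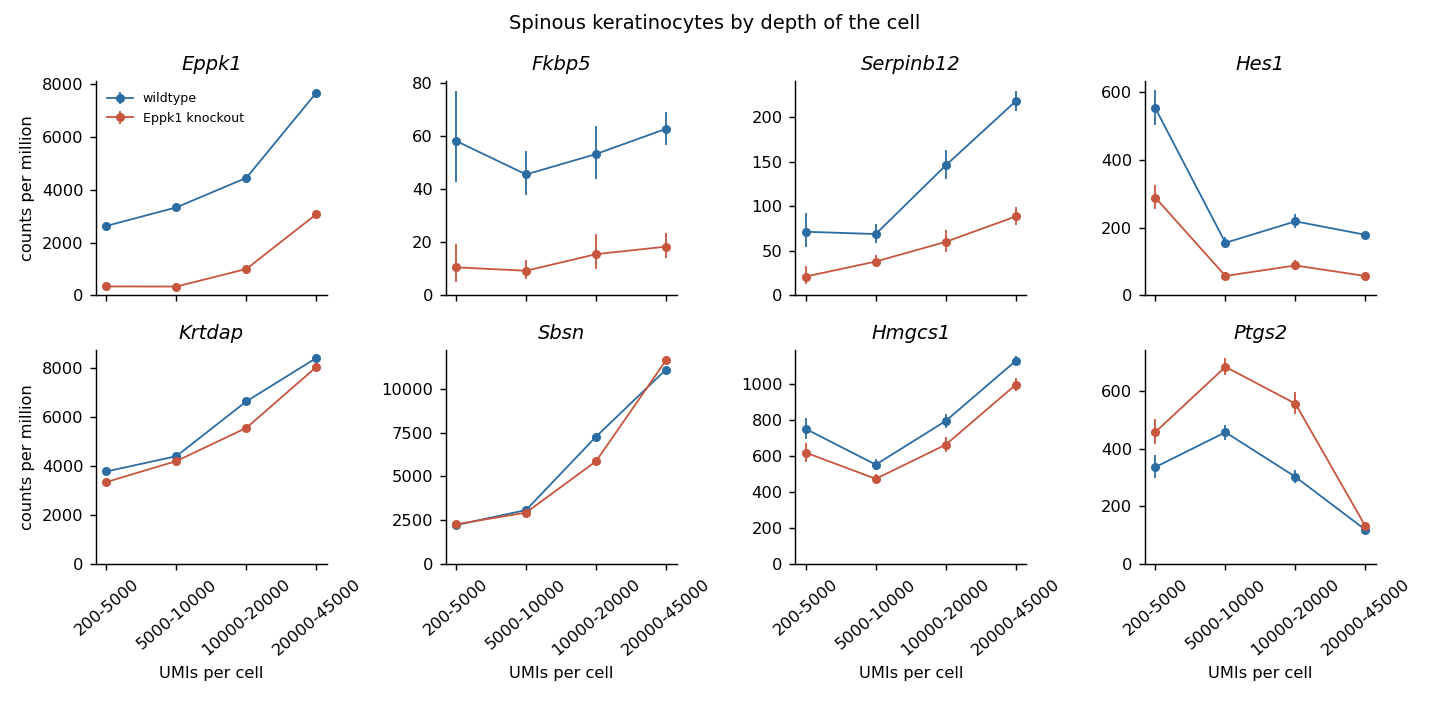
Levels in CPM of Eppk1, Fkbp5, Serpinb12, Hes1, Krtdap, Sbsn, Hmgcs1 and Ptgs2 in spinous keratinocytes of the wildtype and Eppk1 knockout library, by UMIs per cell in 4 bands. Points are sums over the cells of a band and bars are 95% Poisson intervals; Eppk1, Fkbp5, Serpinb12 and Hes1 are lower in the knockout library in all 4 bands, while Sbsn is higher in deep cells of both.

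Eppk1 (chr15:76101481-76120195, minus strand, mm10) is the deleted gene, and its level was the check of the labels. It had 69549 UMIs in wildtype and 12782 in Eppk1-/- spinous cells, or 5789 CPM (5746 to 5832) and 1438 CPM (1413 to 1463). The log2 ratio was -2.01 (-2.04 to -1.98), and -1.60 depth-weighted. The Eppk1-/- spinous cells were thus lower, as labelled, but not at 0. When each cell was thinned to 2000 UMIs, an Eppk1 UMI was found in 91.8% (89.9 to 93.5%) of wildtype and 39.1% (35.9 to 42.3%) of Eppk1-/- spinous cells, with 29 and 44 shallower cells left out. Unthinned, the shares were 96.5% and 53.7%. In fibroblasts the thinned shares were 9.63% (8.13 to 11.3%) and 3.31% (2.62 to 4.11%), below those of spinous cells in both libraries. Granular cells went the other way in this share, with 62.3% (54.2 to 69.8%) of wildtype and 72.5% (62.2 to 81.4%) of Eppk1-/- cells thinned and 77.4% and 97.8% unthinned. In these cells the level alone was lower in the Eppk1-/- library. Which part of the gene the probes bind, relative to the deleted part, was not given in the sources used here.

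The remaining Eppk1 UMIs of the Eppk1-/- library were unevenly spread over its spinous cells. The 10% of cells with the most Eppk1 held 83.6% of these UMIs, against 52.9% in the wildtype library. From the shallowest to the deepest band, wildtype cells stood at 2629, 3331, 4448 and 7673 CPM and Eppk1-/- cells at 339.9, 335, 999 and 3073 CPM, with log2 ratios of -2.95, -3.31, -2.15 and -1.32. From the lowest to the 4 to 8% band of the Krt1 and Krt10 share, wildtype cells stood at 2346, 5552 and 8983 CPM and Eppk1-/- cells at 275, 1279 and 2721 CPM, with log2 ratios of -3.09, -2.12 and -1.72. The gap was thus widest among the less differentiated and shallower members. In basal cells Eppk1 was at 1045 and 67.4 CPM, a log2 ratio of -3.95 (-4.07 to -3.84), and in granular cells at 3165 and 2218 CPM, a log2 ratio of -0.51 (-0.57 to -0.46). The spinous value lay between those of its neighbours, with counting intervals that do not overlap.

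The other plakins differed less. Of the 7 plakin genes Eppk1 alone passed 0.5 in size, and their median log2 ratio was -0.054, against 0.03 over all 9481 genes with at least 50 UMIs. Dsp, which encodes desmoplakin, stood at 7783 and 7263 CPM (-0.10, -0.11 to -0.085) and was at 0.0081 depth-weighted. Ppl (periplakin) was at -0.054 and Evpl (envoplakin) at 0.017, both proteins of the cornified envelope. Of the cytoskeletal linkers, Plec was at 0.25 (0.18 to 0.32), Dst at -0.12 (-0.19 to -0.041) and Macf1 at -0.0055. Depth-weighted, Ppl was at 0.053, Evpl at 0.12, Plec at 0.23, Dst at -0.43 and Macf1 at 0.17. Along the bands of the Krt1 and Krt10 share Dst was at -0.37, -0.056 and 0.24 (0.039 to 0.44), so that its direction turned.

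Over all genes with a UMI in enough cells, 134 of 4825 (2.78%) passed 0.5 in size, 62 of them higher (1.28%) and 72 lower (1.49%) in the Eppk1-/- library. Without the genes of the cell rule 129 of 4818 passed (2.68%), 60 higher (1.25%) and 69 lower (1.43%). Depth-weighted, 55 passed (1.14%), 22 higher (0.456%) and 33 lower (0.684%). Of the 62 higher genes 18 also passed depth-weighted, and of the 72 lower ones 24, while all of both sets kept their sign. Of the 62 higher genes 60 had a higher level in wildtype basal than in wildtype spinous cells, against 2700 of all 4825 genes (56%). Of the 72 lower genes 39 had a higher level in wildtype granular than in wildtype spinous cells, against 841 of all (17.4%), and 13 had one in wildtype basal cells. The wildtype spinous level enters both ratios, so that these counts describe the genes and are no support for a shift between stages. How far stage set these lists was not tested. The mix of deep and shallow cells was addressed by the weighting alone. Thinning each cell to 2000 UMIs moved the count of lower genes the other way, to 210. Thinning keeps nearly the same cells in each library and rests on smaller sums, so this count cannot show the part of depth.

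The 10 lowest ratios, genes of the cell rule left out, were those of Fkbp5, Eppk1, Serpinb12, Hes1, Dusp14, Efna3, Serhl, Vopp1, Hal and Egln3. Fkbp5 (chr17:28399094-28517527), a co-chaperone of the glucocorticoid receptor and one of its targets, stood at 56.9 and 13.7 CPM, a log2 ratio of -2.05 (-2.34 to -1.77). A UMI was found in 33.4% and 9.20% of the cells. From the shallowest to the deepest band, wildtype cells stood at 58.1, 45.5, 53.1 and 62.6 CPM and Eppk1-/- cells at 10.6, 9.27, 15.5 and 18.3 CPM. Fkbp5 was thus lower at every depth, and its depth-weighted ratio was -1.89. It was at 80.6 and 54.9 CPM in basal cells (-0.55), 37.1 and 12.4 CPM in granular cells (-1.55) and 64.7 and 51.6 CPM in fibroblasts (-0.33).

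Serpinb12 (chr1:106934449-106957080), a serine protease inhibitor of epithelia, stood at 162 and 58.2 CPM, a log2 ratio of -1.48 (-1.62 to -1.34) and -1.26 depth-weighted. Its level was highest in spinous cells, with 1.33 and 0.547 CPM in basal cells, 28.1 and 11.4 CPM in granular cells and 0.817 and 0.123 CPM in fibroblasts. The lower level in the Eppk1-/- library was seen in each depth band, with log2 ratios of -1.73, -0.85, -1.27 and -1.30.

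Hes1 (chr16:30064384-30067796), a transcriptional repressor and target of Notch, stood at 207 and 87.1 CPM, a log2 ratio of -1.25 (-1.36 to -1.13) and -1.39 depth-weighted. Along the 3 bands of the Krt1 and Krt10 share it stood at 107, 146 and 407 CPM in wildtype and at 55.9, 71.6 and 142 CPM in Eppk1-/- cells. Hes1 had a ratio of -0.65 in basal cells, -1.93 in granular cells and 0.40 in fibroblasts, where it stood at 385 and 509 CPM. It was thus lower in the Eppk1-/- library in the 3 keratinocyte stages. In granular cells, however, 19.7% of 4665 genes were lower by 0.5 or more and 2.7% higher. The granular ratios of other genes named here share this background.

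Efna3 (chr3:89313899-89322965), a membrane-bound ligand of Eph receptors, stood at 268 and 115 CPM (-1.22, -1.32 to -1.12), with -0.94 depth-weighted and log2 ratios of -1.43, -1.86, -1.17 and -0.72 by depth band. Dusp14 (chr11:84048041-84069261), a dual-specificity phosphatase, stood at 183 and 78.5 CPM (-1.22, -1.35 to -1.10), with -0.92 depth-weighted and 0.044, -0.79, -1.39 and -0.88 by band. Efna3 was thus lower at every depth, and Dusp14 in all but the shallowest cells. Hal (chr10:93488768-93519304) stood at 399.6 and 193 CPM (-1.05, -1.13 to -0.97), and its depth-weighted ratio was -0.61. Egln3 (chr12:54178981-54203860), a prolyl hydroxylase that marks HIF for degradation, stood at 144 and 75.9 CPM (-0.92, -1.05 to -0.79) and was at -0.92 depth-weighted. Serhl stood at 28.0 and 13.2 CPM (-1.08, -1.10 depth-weighted) and Vopp1 at 47.6 and 22.6 CPM (-1.07, -1.02 depth-weighted). Egln3, Serhl and Vopp1 thus differed alike with and without the weighting, while Hal lost part of its difference.

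**Figure D3:**
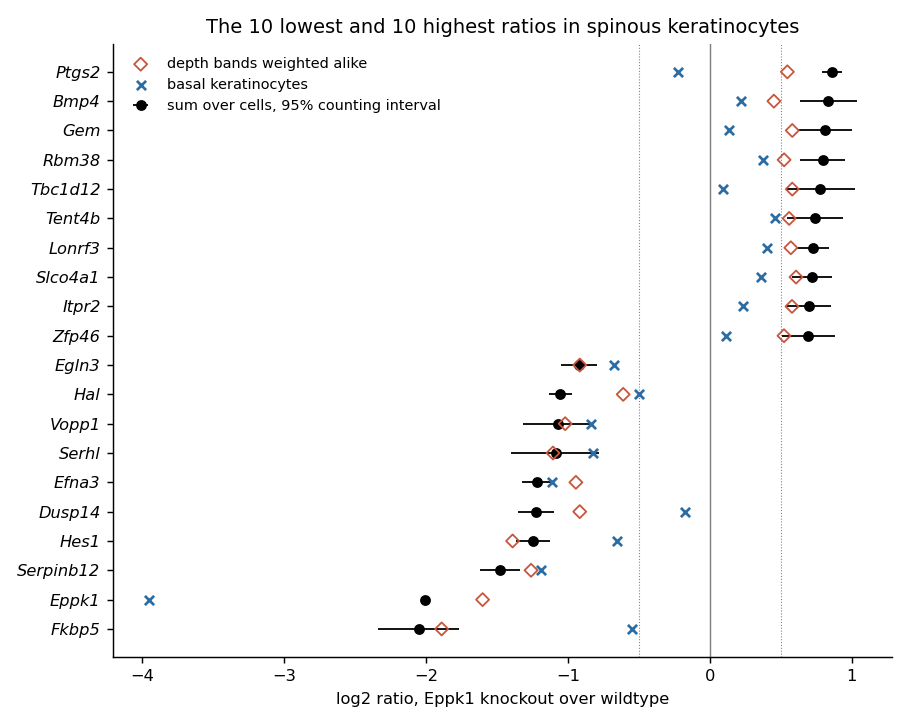
Log2 ratio of the Eppk1 knockout over the wildtype library for the 10 genes with the lowest and the 10 with the highest ratios in spinous keratinocytes, as sums over the cells with 95% counting intervals, with depth bands weighted alike, and in basal keratinocytes. Dotted lines mark 0.5 in either direction; Ptgs2 stands at 0.86 in spinous and -0.22 in basal cells, and Eppk1 at -2.01 and -3.95.

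The 10 highest ratios were smaller in size. Ptgs2 (chr1:150100031-150108227) stood at 241 and 438 CPM (0.86, 0.79 to 0.93), and its ratio was 0.55 depth-weighted. From the shallowest to the deepest band it stood at 336, 457, 302 and 119 CPM in wildtype and at 458, 684, 556 and 132 CPM in Eppk1-/- cells. It was thus higher in the Eppk1-/- library in each band, by little in the deepest, while in basal cells it stood at 1247 and 1068 CPM (-0.22). Bmp4 (chr14:46383520-46390669), a secreted ligand of the TGF-beta superfamily, stood at 30.1 and 53.8 CPM (0.84, 0.64 to 1.04), with log2 ratios of 0.91, 0.68, 0.59 and -0.52 by band. Gem, a small GTPase, was at 0.81, Rbm38, an RNA-binding protein, at 0.80, Tbc1d12 at 0.78 and Tent4b, a poly(A) polymerase, at 0.74. Lonrf3 was at 0.73, the organic anion transporter Slco4a1 at 0.72, the calcium channel Itpr2 at 0.70 and Zfp46 at 0.69. Depth-weighted, these 10 ratios lay between 0.45 (Bmp4) and 0.61 (Slco4a1). Fibroblasts held 682 and 663 CPM of Ptgs2, 642 and 611 CPM of Gem and 98.6 and 76.4 CPM of Bmp4. Tbc1d12 stood at 37.6 and 70.6 CPM there (0.91). The part of fibroblast RNA in the spinous values was not tested.

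**Figure D4:**
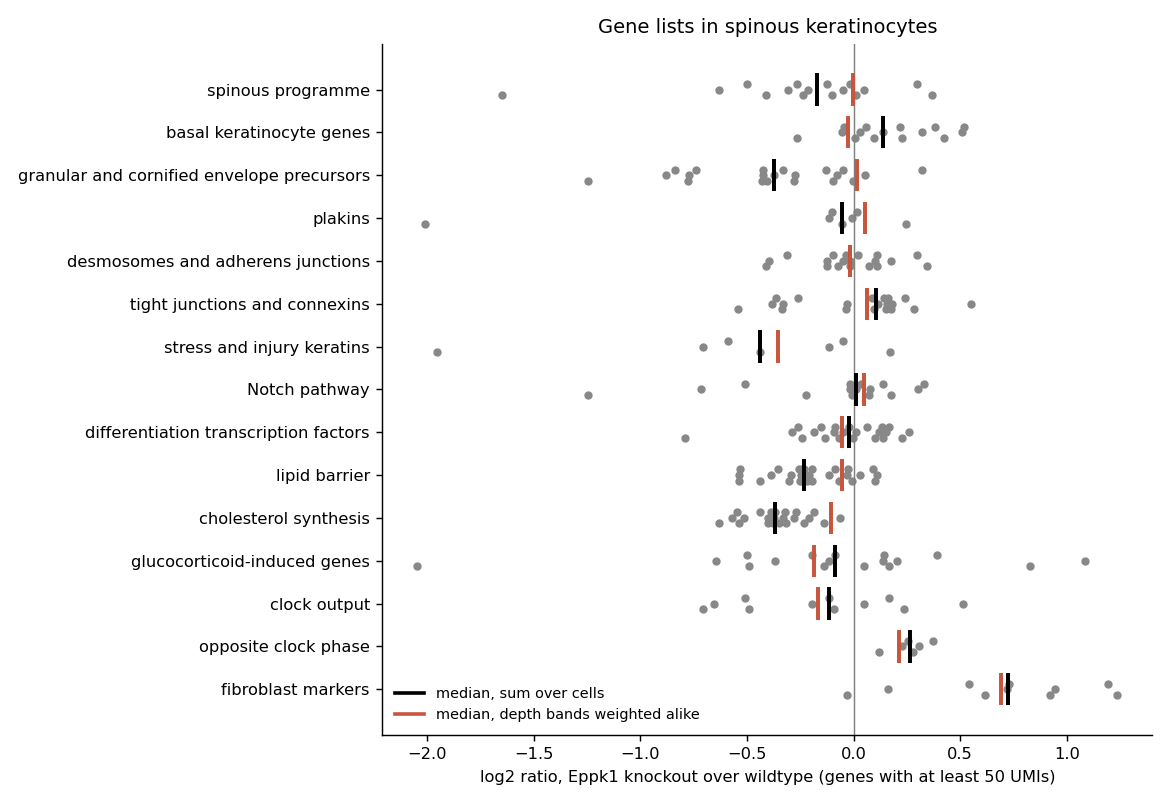
Log2 ratio of the Eppk1 knockout over the wildtype library for members of 15 gene lists with at least 50 UMIs in spinous keratinocytes. Points are genes and lines are medians, of the sums over cells and with depth bands weighted alike; cholesterol synthesis genes all lie below 0 in the sums, with a median of -0.37, which is -0.10 depth-weighted.

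The spinous programme, a list of 16 genes, had a median log2 ratio of -0.17, with 4 members higher, 12 lower and 3 past 0.5, all of them lower. Over all 9481 genes with at least 50 UMIs, 5221 (55.1%) were higher and 4260 (44.9%) lower, and 944 (9.96%) were past 0.5, 476 higher (5.02%) and 468 lower (4.94%). Krt1 and Krt10, which chose the cells, were at 0.37 and -0.049, or 0.11 and 0.095 depth-weighted. Krt77 stood at 22231 and 18891 CPM (-0.23), Krtdap was at -0.27 (-0.28 to -0.25), Sbsn at -0.31 (-0.32 to -0.29) and Mt4 at -0.016 (-0.075 to 0.042). Depth-weighted these 4 were at 0.04, -0.10, -0.0011 and -0.21, and the median of the list was -0.00096. Endou, an endoribonuclease, stood at 48.1 and 15.3 CPM (-1.65, -1.93 to -1.38) and was at -1.40 depth-weighted. Calml3, a calmodulin-like protein, was at -0.63 and -0.20 depth-weighted, and Krt78 at -0.50 and -0.18. Ly6d, a surface protein of keratinocytes, was at 0.30 (0.20 depth-weighted). Once depth was weighted the list was thus near 0, and Endou alone of its 3 genes past 0.5 stayed past it.

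Most genes of the basal stage were higher and most of the granular stage lower in the sums. Of 15 basal keratinocyte genes 12 were higher and 3 lower, against 55.1% and 44.9% of all genes, with a median of 0.14. Krt5, the basal type II keratin, was at 0.23 (0.19 to 0.27) but at -0.11 depth-weighted, with log2 ratios of -0.17, -0.16, -0.05 and -0.04 by depth band, so that its direction turned. The list also holds Col17a1, a collagen of hemidesmosomes, at 0.38 (0.044 depth-weighted). Moxd1 was highest at 0.52 (0.20 depth-weighted) and the integrin Itgb1 lowest at -0.26 (-0.48 depth-weighted). Of 25 granular and cornified envelope precursors 21 had at least 50 UMIs. Of these 19 were lower and 2 higher, against 44.9% and 55.1% of all genes, with a median of -0.37. Cnfn (cornifelin) stood at 386 and 210.0 CPM (-0.88), Tgm1, the transglutaminase that cross-links the envelope, at 187 and 109 CPM (-0.78) and the envelope gene Kprp at 168 and 98.3 CPM (-0.77). The small proline-rich gene Sprr1a, with the most UMIs, stood at 12863 and 11757 CPM (-0.13, 0.015 depth-weighted). Flg was highest at 0.32, or -0.088 without shared droplet barcodes, and Lor lowest at -1.25, both used by the cell rule and found in fibroblasts as given above. Depth-weighted the medians were -0.028 for basal and 0.015 for granular genes, with 11 granular genes higher and 10 lower, and Cnfn, Tgm1 and Kprp were at -0.45, -0.40 and -0.41. By depth band Cnfn had log2 ratios of 2.49, -0.51, -1.74 and -0.29, and in the shallowest band, where it was higher in the Eppk1-/- library, it had 10 wildtype and 67 Eppk1-/- UMIs. In members without a UMI of Flg or Lor the medians were 0.28 for basal and -0.66 for granular genes. These members had median depths of 6532 and 6128 UMIs, against 9246 and 7044 UMIs in members with one. The split by Flg or Lor UMIs, here and below, thus also went with depth. The place of both lists therefore moved with the cells taken. Sprr genes are a family of close copies, and how the probes tell these apart was not tested.

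Adhesion genes went in both directions. The 19 genes of desmosomes and adherens junctions with at least 50 UMIs had a median of -0.018 (8 higher, 11 lower), and 0 passed 0.5. Their counting intervals lay above 0 for 5 genes, below 0 for 8 and held 0 for 6, against 2050 (21.6%), 1410 (14.9%) and 6021 (63.5%) of all 9481 genes. Perp, a membrane protein of desmosomes, stood at 8396 and 7996 CPM (-0.071, -0.11 depth-weighted), Dsg2, a desmosomal cadherin, was highest at 0.34 (0.07 depth-weighted) and Dsc1 lowest at -0.41, or -0.00079 depth-weighted. Dsc1 was at 1.52 (0.94 to 2.16) in cells with fewer than 5000 UMIs and at -0.83 in members without a Flg or Lor UMI. Tight junction and connexin genes had a median of 0.11 over 20 genes (12 higher, 8 lower), and the claudin Cldn4 stood at 5544 and 5414 CPM (-0.034, 0.00040 depth-weighted). The connexins Gja1 and Gjb2 passed 0.5 in opposite directions, 1 gene higher and 1 lower of 20, against 5.02% and 4.94% of all genes. Gja1 stood at 390.3 and 572 CPM (0.55, 0.50 to 0.61) and Gjb2 at 335 and 230.2 CPM (-0.54, -0.62 to -0.46), with 0.29 and -0.13 depth-weighted. In cells with fewer than 5000 UMIs the direction of Gjb2 turned, with 16 wildtype and 66 Eppk1-/- UMIs (1.81, 1.04 to 2.74). In members without a Flg or Lor UMI Gja1 was at 0.55 and Gjb2 at -1.23. Actin linkers had a median of 0.08 over 11 genes. Of these 2 (Actn1 and Flnc) were past 0.5 and lower, against 4.94% of all genes. The list ran from -0.79 for the actinin Actn1 to 0.42 (0.24 depth-weighted) for the filamin Flna. Actn4, with the most UMIs, was at 0.078 (0.013 depth-weighted).

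Most stress and injury keratins and their companions were lower in the sums. Of 12 listed genes 7 had at least 50 UMIs, and 6 of these were lower, 3 of them past 0.5, and 1 higher. The counting interval lay below 0 for 5 and held 0 for 2. Over all genes 44.9% were lower, 4.94% lower by 0.5 or more, and the interval lay below 0 for 14.9% and held 0 for 63.5%. The list had a median of -0.44, and -0.35 depth-weighted. Krt16 stood at 1957 and 1199 CPM (-0.71, -0.74 to -0.67), with log2 ratios of -0.64, -0.47, -0.85 and -0.97 by depth band. Krt6a, a type II partner of Krt16, stood at 101.1 and 67.1 CPM (-0.59), with log2 ratios of -0.006, -0.64, -0.38 and -0.68 by depth band. In the 4 to 8% band of the Krt1 and Krt10 share it stood at 23.7 and 39.3 CPM (0.73, 0.28 to 1.19), so that its direction turned there. S100a9, a calcium-binding protein of myeloid cells and inflamed skin, had few UMIs, at 5.41 and 1.35 CPM (-1.95, -3.03 to -1.10). Of its wildtype UMIs 64 lay in the 2 to 4% band and 0 in the 1 to 2% band, which held 7 Eppk1-/- UMIs, and in members without a Flg or Lor UMI its ratio was -0.24 (-1.54 to 0.99). Stfa3 was at 0.17 (-0.26 depth-weighted). Krt16 was thus lower at every depth. Krt6a and Krt16 each have close paralogs, and how the probes tell them apart was not tested.

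Notch pathway genes lay on both sides of 0. Of 15 genes with at least 50 UMIs 8 were higher and 7 lower, with a median of 0.013 and 3 past 0.5, all of them lower, against 55.1% higher and 4.94% lower by that much over all genes. Beside Hes1 these were Nrarp, a target of Notch that limits its signal, at 189.5 and 116 CPM (-0.71, -0.82 to -0.61), and the ligand Dll1 at 25.3 and 17.8 CPM (-0.51, -0.80 to -0.23). The receptor Notch1 stood at 238 and 299 CPM (0.33, 0.14 depth-weighted). Nrarp was at -0.45 and Dll1 at -0.58 depth-weighted.

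Differentiation transcription factors had a median of -0.022 over 23 genes, with 1 past 0.5 and lower, against 4.94% of all genes. Hopx, a homeodomain cofactor, stood at 409.5 and 237 CPM (-0.79, -0.87 to -0.72), and at -0.55 depth-weighted. Klf5 was highest, at 2601 and 3113 CPM (0.26, 0.19 depth-weighted), and Cebpa, with the most UMIs, stood at 3026 and 2979 CPM (-0.022, -0.062 depth-weighted). As a group these regulators thus lay close to the median of all genes.

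Most lipid genes were lower in the sums. Of 29 lipid barrier genes with at least 50 UMIs 25 were lower and 4 higher, against 44.9% and 55.1% of all genes. Their median was -0.23, and -0.053 depth-weighted. Dgat2, which makes triglycerides, was lowest at 344 and 237 CPM (-0.54, -0.14 depth-weighted). Elovl4, which elongates very long fatty acids, stood at 1077 and 918 CPM (-0.23, -0.011 depth-weighted), and the lipase gene Lipn was highest at 0.11 (0.34 depth-weighted). All 23 cholesterol synthesis genes were lower, against 44.9% of all genes, with a median of -0.37 and 5 past 0.5, against 4.94% of all genes that were lower by that much, among them Lss, Idi1, Insig1 and Mvd. Hmgcs1, an early enzyme of the pathway whose promoter is shown above, stood at 914 and 708 CPM (-0.37, -0.41 to -0.32), and was at -0.20 depth-weighted. Lss, which closes the sterol rings, was lowest at -0.63 (-0.30 depth-weighted) and Ebp, a sterol isomerase, closest to 0 at -0.061 (0.078 depth-weighted). Depth-weighted, 16 were lower and 7 higher, with a median of -0.10. By depth band Hmgcs1 had log2 ratios of -0.28, -0.22, -0.26 and -0.18. In basal cells the median of the same list was 0.25. The 5 sebocyte markers, all found in basal cells, summed to 649.9 and 2157 CPM there, led by Scd1 (528 and 1699 CPM), with Far2 at 15.6 and 93.7 CPM, Elovl3 at 7.91 and 44.2 CPM, Awat2 at 0.626 and 7.66 CPM and Mgst1 at 98.1 and 312 CPM. Their part in the basal lipid values was not tested. The single direction of the list thus held for the sums and not depth-weighted, while Hmgcs1 itself was lower in each band.

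Glucocorticoid-induced genes went in both directions, with a median of -0.088 over 17 genes, 8 higher and 9 lower. Depth-weighted the median was -0.18, with 6 higher and 11 lower. In the sums 2 were past 0.5 higher and 2 lower, against 5.02% and 4.94% of all genes. The lower ones were Fkbp5 and Glul, the gene of glutamine synthetase, at 20.3 and 12.9 CPM (-0.65). Angptl4, a secreted inhibitor of lipoprotein lipase, was highest, at 7.24 and 15.4 CPM (1.09), but stood at 405 and 274 CPM in fibroblasts, and the kinase gene Pdk4 was at 0.83. Nfkbia, an inhibitor of NF-kappa-B with the most UMIs, stood at 3433 and 3783 CPM (0.14, 0.056 depth-weighted). The low level of Fkbp5 was thus not shared by all genes of the list.

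Clock output genes had a median of -0.11 over 11 genes, and -0.17 depth-weighted. In the sums 4 were higher and 7 lower, against 55.1% and 44.9% of all genes, and depth-weighted 3 and 8. The counting interval lay below 0 for 6 and held 0 for 5, against 14.9% and 63.5% of all genes. The transcription factor Dbp was at -0.71 (-1.33 to -0.13), -0.68 depth-weighted, its relative Tef at 36.7 and 25.8 CPM (-0.51, -0.75 to -0.28), -0.50 depth-weighted, and the repressor Cry2 at -0.65 (-0.87 to -0.44), -0.60 depth-weighted. Nr1d1, with the most UMIs, stood at 358 and 312 CPM (-0.20, -0.20 depth-weighted), and Per2 was highest at 0.51 (-0.05 to 1.08). All 6 genes of the opposite clock phase were higher, against 55.1% of all genes, with a median of 0.27, and 0.21 depth-weighted. The counting interval lay above 0 for 4 of them and held 0 for 2, against 21.6% and 63.5% of all genes. Clock was highest at 0.38 (0.23 depth-weighted), and Cry1 stood at 278 and 337 CPM (0.28, 0.14 depth-weighted). The medians of the 2 lists thus lay on opposite sides of 0 with and without the weighting, while clock output genes went in both directions. In fibroblasts Dbp was at -1.49 and Nr1d1 at -1.35. The hour at which each mouse was killed was not given in the sources used here, and its part in these values was not tested.

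Of the remaining lists, Txnip, alpha-arrestins and FOXO-linked genes had a median of -0.06 over 18 genes. Txnip itself, which binds thioredoxin and limits glucose uptake, stood at 182 and 100.1 CPM (-0.86, -0.98 to -0.75) and at -1.08 depth-weighted. It was lower in each depth band, with log2 ratios of -1.41, -0.97, -0.87 and -1.02, and was at -0.94 in basal cells, -2.34 in granular cells and -0.08 in fibroblasts. Cited2 was highest at 0.38 and Bcl6, with the most UMIs, at 0.13. Txnip and Sesn1, a sestrin, at -0.51, were the 2 of these 18 genes past 0.5, both lower, against 4.94% of all genes. In either direction 9.96% of all genes were past 0.5.

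Hypoxia-linked genes had a median of -0.013 over 13 genes, with 6 higher and 7 lower. Depth-weighted the median was -0.14, with 3 higher and 10 lower. Egln3 was lowest and Ndufa4l2, a HIF target of the mitochondria, highest at 160.1 and 238 CPM (0.57, 0.48 to 0.66). Slc2a1, the glucose transporter GLUT1, was at 0.01 (-0.21 depth-weighted). Along the bands of the Krt1 and Krt10 share it was at -0.53, 0.18 and 0.53, so that its direction turned. Egln3 and Ndufa4l2 thus lay on opposite sides, depth-weighted too, at -0.92 and 0.58. Early genes of dissociation had a median of -0.015 over 21 genes, with Hspb1, a small heat shock protein with the most UMIs, at -0.26 (-0.055 depth-weighted), Btg2 lowest at -0.48 and Hspa1b highest at 0.14 (0.086 depth-weighted), and 0 passed 0.5. YAP and TEAD targets had a median of -0.095 over 19 genes. Ccn2, a matricellular protein, was lowest at 14.6 and 3.04 CPM (-2.24, -2.90 to -1.67), in 2.52% and 0.931% of the cells, while fibroblasts held 301 and 229 CPM of it. The tissue factor gene F3 stood at 602 and 438 CPM (-0.46, -0.39 depth-weighted) and Yap1 was highest at 0.15 (0.12 depth-weighted).

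Markers of other cells were summed in the same way. Of 12 fibroblast markers 10 had at least 50 UMIs, and 9 of these were higher in the Eppk1-/- library, against 55.1% of all genes. The list had a median of 0.72, from -0.031 (0.018 depth-weighted) for Col6a1 to 1.24 for Fn1. Some of these genes chose the cells. The 12 immune markers had a median of -0.13, with the macrophage gene C1qa lowest at 28.6 and 10.0 CPM (-1.51). C1qa was at -0.073 (-0.61 to 0.44) in members with a Flg or Lor UMI and at -2.64 in those without, and at -0.30 with a Krt1 and Krt10 limit of 0.5%. Highest was Cpa3, a mast cell protease, at 0.250 and 5.74 CPM (4.31, 2.89 to 6.85), from 3 wildtype UMIs, or 1.31 without the cells with the highest Scrublet doublet scores. Of its 51 Eppk1-/- UMIs 50 lay in cells without a Flg or Lor UMI and 48 in the 2 to 4% band. Cd74 was at 0.091, but at 1.66 in the 1 to 2% and -1.43 in the 2 to 4% band, and at -1.39 with a Krt1 and Krt10 limit of 2% and 0.47 with 0.5%, so that its direction rests on the cells taken. The 9 hair follicle markers had a median of -0.49, but Krt79, Defb6 and Cst6, which chose the cells, were 3 of the 4 past 0.5, and the other 6 had a median of -0.24. They were led by Krt17 at 341 and 252 CPM (-0.44, -0.17 depth-weighted), with Lhx2 lowest at -1.01 and Lrig1 highest at 0.046 (-0.12 depth-weighted). All 8 cycling genes were higher, against 55.1% of all genes, with a median of 0.47, and 0.25 depth-weighted. They were led by Pcna at 290.3 and 360.2 CPM (0.31, 0.14 depth-weighted). Mki67 and Top2a, which chose the cells, were at 0.92 and 0.069, or 0.65 and 0.039 depth-weighted. The 3 sebocyte markers had a median of -0.07, with Scd1 at -0.17 (0.027 depth-weighted) and Plin2 at 0.52. Plin2 was at 1.05, 0.39 and -0.81 along the bands of the Krt1 and Krt10 share, the last with a counting interval that holds 0 (-1.81 to 0.066), and at 0.087 with a limit of 2% and 1.47 with 0.5%. Acta1, a muscle actin, stood at 4.58 and 0.113 CPM, against 38.7 and 2.47 CPM in fibroblasts. The part of these cells in the spinous values was not tested.

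The same size rule gave other shares in the neighbouring stages. In basal cells 44 of 2898 genes (1.52%) passed, 14 higher (0.483%) and 30 lower (1.04%). In granular cells, which were far fewer, 1044 of 4665 (22.4%) passed, 126 higher (2.7%) and 918 lower (19.7%). Of the 62 genes higher in spinous cells 3 also passed in basal cells and 56 were above 0 there, against 49.3% of the same 4825 genes. The basal counting interval lay above 0 for 42 of them and below 0 for 4, against 911 (18.9%) and 905 (18.8%) of the 4825 genes. Of the 72 lower ones 24 also passed and 53 were below 0, against 50.7%, with the interval below 0 for 33 and above 0 for 10. All stages come from the same mice, so that a shared sign is not an independent repeat. Efna3, Serpinb12, Vopp1, Serhl and Egln3 had log2 ratios in basal cells of -1.11, -1.19, -0.84, -0.82 and -0.67. Fkbp5, Hes1 and Dusp14 were at -0.55, -0.65 and -0.18 there. All 8 were below 0, and the counting intervals of Serpinb12 and Dusp14 held 0. The 8 genes were chosen for their low spinous ratios, so values nearer to 0 in basal cells may follow from that choice. Eppk1, also among the 10 lowest, was farther from 0 in basal (-3.95) than in spinous cells (-2.01). Whether the stages differ could not be tested with 1 library per genotype.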

How the data were processed

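The deposited files hold the UMI count of 19059 genes in every cell that the authors called with Cell Ranger 8.0.1 (mm10), neither normalized nor filtered. All deposited cells held 77638793 (wildtype) and 65118304 (Eppk1-/-) UMIs, in 9179 and 8811 cells. Cells were filtered as described, members chosen on shares of all UMIs, and the 13 mitochondrial genes then left out of the sums. UMIs were summed per gene and library, 0.5 UMI was added to each sum for ratios, and intervals were exact (Poisson for CPM, conditional on the total for ratios, Clopper-Pearson for shares). No test was made, since cells are not replicates. MAST, which the study ran on cells, was not run. Doublets were not removed from the main values, and Scrublet (scanpy 1.11.5, expected rate 0.06) was used for an alternative. Python 3.11.15, numpy 2.4.6, pandas 2.3.3, scipy 1.17.1, R 4.3.3 and edgeR 4.0.16 (TMM factors only) were used. The sums were tested on simulated data. Gene coordinates came from GENCODE M21, promoters from RefSeq.

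The members, the lists and the choice of what to report were made with earlier results of these data known. Genes named were the 5 markers, the 7 plakins, the genes used by the cell rule, the 10 highest and 10 lowest ratios among genes that passed the detection limit (25% of members), and of each of 25 lists the gene with the most UMIs and those with the highest and lowest ratio among at least 50 UMIs. Other genes named were chosen after their values were seen. Some genes that this rule would name are not reported here. Alternatives were a cell filter raised to 1000 UMIs and 500 genes, none at all, Krt1 and Krt10 limits of 2% and 0.5%, a Flg and Lor limit of 0.3%, removal of the highest 5% of Scrublet scores or of shared droplet barcodes, TMM, centring on the median gene, the mean over cells, weighted Krt1 and Krt10 bands, thinning to 2000 UMIs, rule genes left out of the total, and a detection limit of 10% or none. Depth weighting and leaving out cells with a Flg or Lor UMI were added after the data were seen.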

Additional observations from a re-analysis of the deposited data

Results flagged for a closer look

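Of the 129 genes named in the report that had at least 50 UMIs in spinous cells, some of them chosen after their values were seen, 21 lay on opposite sides of 0 in spinous and basal cells, with counting intervals that leave out 0 in both. Of the 4825 genes with a UMI in enough cells, 287 (5.95%) did so. The named genes were partly chosen by their values, so this count is not read as an excess over other genes. Pairs of values give the log2 ratio in spinous and then in basal cells. Higher in spinous and lower in basal cells of the Eppk1-/- library were 8 genes. Ptgs2 was at 0.86 and -0.22, Cited2 at 0.38 and -0.23, Col17a1 at 0.38 and -0.076 and Krt1, which was used to choose both kinds of cells, at 0.37 and -0.21. Il33 was at 0.29 and -0.27, Yap1 at 0.15 and -0.12, Hspa1b at 0.14 and -0.36 and Nfkbia at 0.14 and -0.11. The other 13 were lower in spinous and higher in basal cells. S100a9, with few UMIs, was at -1.95 and 2.55, Krt79, which limited the choice of cells, at -0.95 and 1.37 and Nrarp at -0.71 and 0.27. Of the lipid genes Lss was at -0.63 and 0.65, Insig1 at -0.55 and 0.25, Mvd at -0.54 and 1.76, Dgat2 at -0.54 and 0.68, Elovl4 at -0.23 and 2.34 and Scd1 at -0.17 and 1.69. Sebocyte markers were also higher in these basal cells, with sums of 649.9 (wildtype) and 2157 CPM (Eppk1-/-), and their part in the basal lipid values was not tested. Of the genes of differentiation and desmosomes Cdsn was at -0.43 and 0.84, Sbsn at -0.31 and 0.40, Dmkn at -0.21 and 0.10 and Dsp at -0.10 and 0.057. Each value rests on 1 library per genotype, and the difference between the stages was not tested. Depth-weighted, the spinous values turned sign for Il33 (-0.026), Cdsn (0.015), Scd1 (0.027) and Dsp (0.0081), and Sbsn was at -0.0011.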

How the results depend on the processing

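No paired analysis was possible because each genotype had 1 library. The share of members was within the main interval under stricter cells, the lower Flg and Lor limit and both removals of cells. It was 12.3% (wildtype) and 12.03% (Eppk1-/-) without a cell filter, 7.31% and 7.66% with a Krt1 and Krt10 limit of 2%, 13.9% and 12.97% with 0.5%, and 5.72% and 6.60% without cells with a Flg or Lor UMI. Eppk1 stayed lower in the Eppk1-/- library under all 15 alternatives. Its log2 ratio was -1.52 with no cell filter, -1.92 with the 2% limit, -2.10 with the Flg and Lor limit of 0.3%, -2.09 without shared barcodes, -2.04 with TMM and with centring, -2.54 as a mean over cells, -2.52 thinned, -1.60 depth-weighted and -2.87 without Flg or Lor UMIs. Against 62 genes higher, 103 were found with the 2% limit, 39 with 0.5%, 22 depth-weighted, 170 with detection in 10% and 476 with no detection limit. Against 72 lower, 46 were found with no cell filter, 137 as a mean over cells, 210 thinned, 33 depth-weighted, 191 with detection in 10% and 468 with no limit. The causes were not tested.

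Depth weighting moved the medians of the lists to 0.053 for plakins, -0.00096 for the spinous programme, -0.028 for basal genes, 0.015 for granular genes, -0.35 for stress keratins, -0.053 for the lipid barrier, -0.10 for cholesterol synthesis and -0.11 for early genes. It also gave -0.18 for glucocorticoid-induced genes, -0.14 for hypoxia-linked genes and 0.25 for cycling genes. Without Flg or Lor UMIs the medians were -0.12 for plakins, -0.24 for the spinous programme, 0.28 for basal, -0.66 for granular and 0.053 for early genes. No cell filter gave -0.097 for the spinous programme, -0.16 for granular genes and -0.19 for cholesterol synthesis. A mean over cells gave -0.22 for the spinous programme, -0.50 for granular genes, -0.48 for cholesterol synthesis, -0.30 for clock output and -0.11 for early genes, and thinning gave -0.53 for granular genes, -0.32 for clock output and -0.14 for early genes. The 2% limit gave -0.0045 for plakins and 0.15 for hypoxia-linked genes, and the 0.3% limit -0.30 for stress keratins. For the 44 genes past 0.5 that were run under the alternatives, Eppk1 left out, 549 of 660 values stayed within the main counting interval. Only 1 changed sign: Lor, at 0.095, in cells chosen to hold no Lor UMI. Other named genes past 0.5, such as Cnfn, Tgm1 and Nrarp, are not in this count. With 1 mouse per genotype the spread between mice is unknown. Depth limited low genes such as Ccn2 and S100a9, whose intervals span over 1 on the log2 scale.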

Other observations

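The cells above 45000 UMIs that met every other limit of the rule made up 1.47% (1.23 to 1.74%) of the 9179 deposited wildtype cells and 1.06% (0.853 to 1.29%) of the 8811 deposited Eppk1-/- cells. They were left out by the depth limit that the study applied, and their expression was not analysed here. Spinous cells without any UMI of Krt5 and Krt14 made up 38.3% (wildtype) and 46.8% (Eppk1-/-) of the members. TMM factors of the sums were 0.988 and 1.01.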
